A study of Mus musculus with 12 samples.

Results

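Glycolysis and the pentose phosphate pathway were followed through 37 genes that encode their carriers, enzymes and bifunctional regulators. The genes were chosen by pathway membership and found by symbol and Ensembl ID among the 39179 gene IDs of a table of prostate RNA-seq. All 37 were in the table, and all 37 were among the 16197 genes that had a value of at least 4 on the deposited log2 scale in 6 or more libraries and were tested. The libraries came from prostates of null mice (n = 6) and wild-type mice (n = 6), the null mice lacking a single gene. Mice of both genotypes were 4 months old, of a hybrid 129/SvImJ and C57Bl/6J strain, and treated with paraquat, a herbicide that cycles between redox states and generates superoxide. No untreated library was analysed here, so every difference is one of genotype under paraquat. The labels do not say whether each library is a separate mouse, so p-values measure only the spread between these libraries.

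Glycolysis breaks glucose down to pyruvate in the cytosol, and lactate dehydrogenase can then turn pyruvate into lactate, which leaves through monocarboxylate carriers. Glucose 6-phosphate, made by the hexokinases, can instead enter the pentose phosphate pathway. The oxidative arm of that pathway makes NADPH, which keeps glutathione and thioredoxin reduced and is therefore tied to the handling of superoxide and peroxides. Its non-oxidative arm moves carbon between pentoses and glycolytic sugars. Prostate secretory epithelium is known for releasing citrate rather than oxidising all of it.

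The libraries of each genotype fell into 2 sets of 3 (libraries 1 to 3 and 4 to 6), seen from the values and not from the labels. The median absolute difference between libraries over the tested genes was 0.0776 to 0.141 for pairs within 1 set, against 0.274 to 0.352 for pairs from the 2 sets of a genotype. Each gene was therefore compared with limma over 12 libraries and again over the 4 set means. A single gene is said below to have risen or fallen only where both comparisons had a Benjamini-Hochberg adjusted p under 0.05 over all tested genes. Estimated depth was 14.8 to 21.7 M reads per library. The prostate epithelial markers Krt8, Krt18 and Epcam were above the filter and went different ways. Krt8 differed by -0.29 and was not called, while over 12 libraries Krt18 (-1.13) was called lower and Epcam (0.44) higher, and neither passed over set means. The secretory gene Pbsn fell to 10.37 to 11.84 in null libraries, against 18.12 to 18.76 in wild-type libraries. Seminal vesicle secretory genes of the Svs family made up 15.5% to 15.7% of the library total in null libraries 1 to 3, 0.715% to 0.727% in null libraries 4 to 6, and at most 0.00107% in wild-type libraries. In bulk tissue such as this, fewer cells of a type and less RNA per cell cannot be told apart.

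RefSeq promoter windows (GRCm38.p6) were available for 35 of the 37 genes, in 53 windows, and 3 are shown because their genes carry the main results. Hk2 was the enzyme that rose in both comparisons given below, Pfkfb3 had the widest gap between sets, and Ldha had one of the largest negative differences. Each is the 250 bases before a RefSeq start, 5′ to 3′ on the strand of the gene. Capitals mark matches, on either strand, to ACGTG or GCGTG, the core letters bound by hypoxia-inducible factors. Where a match lies inside CACGTG, it overlaps the E-box read by basic helix-loop-helix factors.
Hk2, chr6:82774455-82774704, minus strand: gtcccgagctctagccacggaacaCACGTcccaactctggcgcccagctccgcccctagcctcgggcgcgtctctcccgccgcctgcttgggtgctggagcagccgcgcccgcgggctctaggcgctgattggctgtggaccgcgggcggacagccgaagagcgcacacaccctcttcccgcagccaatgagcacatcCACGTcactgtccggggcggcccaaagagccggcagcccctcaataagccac
Pfkfb3, chr2:11502091-11502340, minus strand, the more downstream of 2 RefSeq starts: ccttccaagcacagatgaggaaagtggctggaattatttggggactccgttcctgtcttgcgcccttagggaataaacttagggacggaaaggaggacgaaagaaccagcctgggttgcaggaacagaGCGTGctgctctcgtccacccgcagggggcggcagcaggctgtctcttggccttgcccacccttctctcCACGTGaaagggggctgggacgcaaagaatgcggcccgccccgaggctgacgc
Ldha, chr7:46845554-46845803, plus strand, the more upstream of 2 RefSeq starts: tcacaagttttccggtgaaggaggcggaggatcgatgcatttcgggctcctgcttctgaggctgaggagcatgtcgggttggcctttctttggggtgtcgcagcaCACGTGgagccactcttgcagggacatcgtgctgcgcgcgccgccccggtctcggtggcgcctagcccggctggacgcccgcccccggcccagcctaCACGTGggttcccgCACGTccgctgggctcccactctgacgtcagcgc
The Hk2 window held 2 matches and none inside CACGTG. The Pfkfb3 window, 11 bases of which lie in an annotated exon, held 3 matches, 2 of them from the strands of 1 CACGTG. The Ldha window held 5 matches with 2 CACGTG, each of which again counts on both strands. At the other RefSeq start of Pfkfb3 and of Ldha, not shown, the window held 1 match and no CACGTG. A match to ACGTG or GCGTG was found in 39 of the 53 windows of these genes (73.6%), in 38.6% of all 32851 windows, and CACGTG in 9.43% of the 53 and 6.02% of all. Each motif contains the pair CG, of which the 53 windows held a mean of 12.5 and all windows 9.86. Matches are a description of letters and not of binding.

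Among the 37 genes, 10 were higher and 14 lower in null libraries by limma over 12 libraries. The same comparison called 34.1% of all tested genes higher and 31.8% lower, so the share called higher, 10 of 37, was near that background, and so was the share called lower, 14 of 37. Over set means, 2 of the 37 rose (Slc2a3 and Hk2) and 0 fell, against 2.15% of all tested genes higher and 1.93% lower. At an unadjusted p under 0.05, limma over set means gave 4 higher and 6 lower of the 37, against 2567 higher and 2474 lower of all 16197 tested genes. The 6 null and 6 wild-type libraries did not overlap for 8 genes on the higher side and 10 on the lower side, against 21.5% and 22.7% of all tested genes. The median difference of the 37 genes, null minus wild type, was -0.11 on the log2 scale, against 0.05 for all tested genes. Scaling by library totals moved the median of all tested genes to 0.367 and that of the 37 genes to 0.21, and turned the split to 17 higher and 7 lower. On that scale the split over all tested genes was 8611 higher and 2608 lower (76.8% of calls higher), against 5518 and 5152 (51.7%) on the deposited scale.

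**Figure D1:**
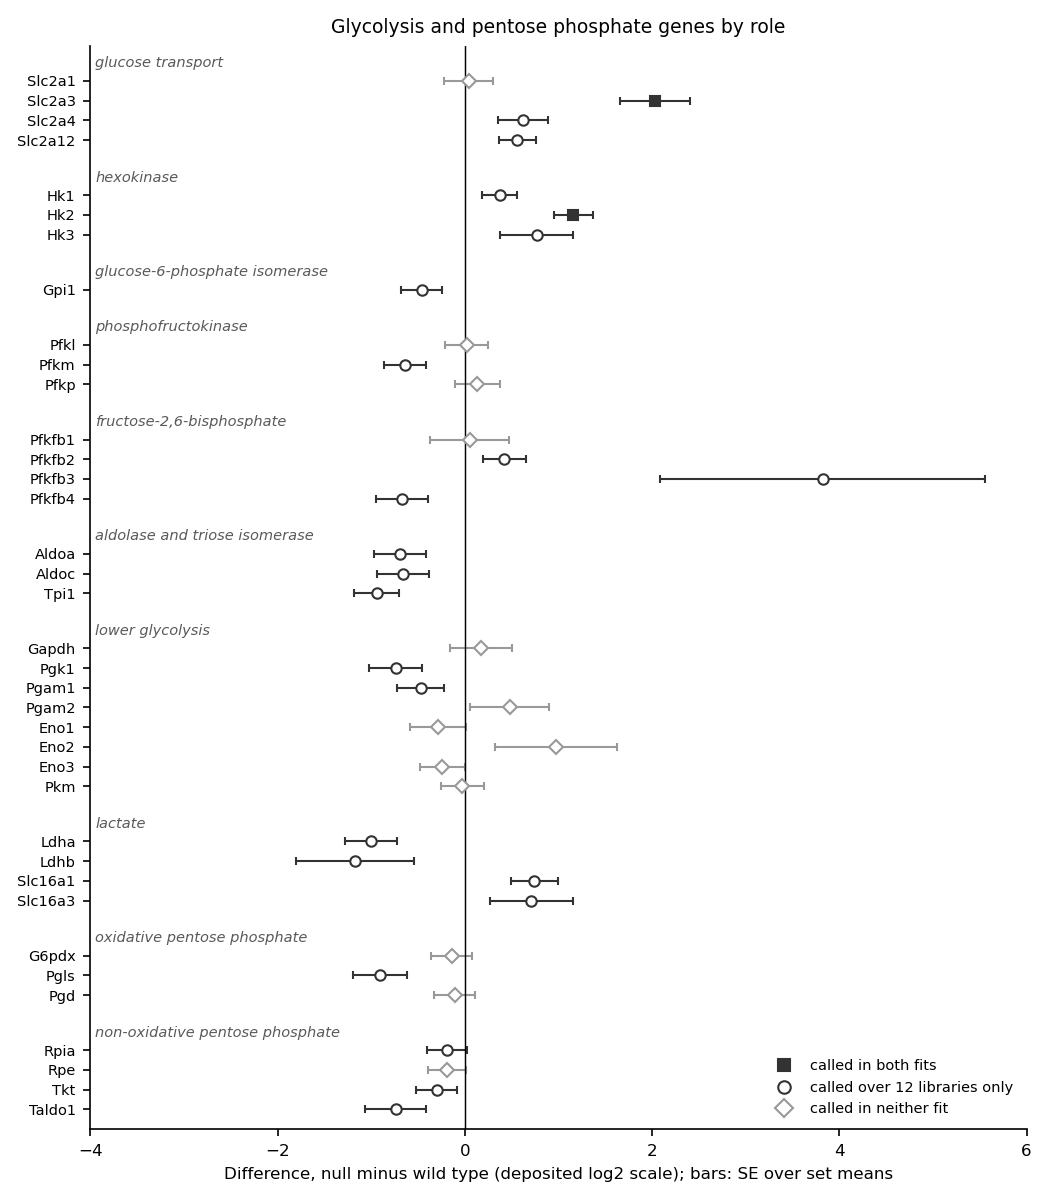
Difference of each of the 37 genes, null minus wild type, on the deposited log2 scale (x axis), grouped by step of the pathway from glucose uptake at the top to the non-oxidative pentose phosphate arm at the bottom; bars are the SE over 4 set means. Transporters and hexokinases lie at or right of 0 and the aldolases with Tpi1 left of it, with Slc2a3 (2.03) and Hk2 (1.16) called in both comparisons and Pfkfb3 (3.82) carrying the widest bar.

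Glucose enters cells through the facilitative carriers of the Slc2a family, and 4 were followed. Slc2a3, which encodes the high-affinity carrier GLUT3 of neurons and leukocytes, had a lowest, median and highest value of 7.84, 8.20 and 8.76 in null libraries, against 5.68, 6.30 and 6.56 in wild-type libraries. The groups did not overlap, and the lowest null library stood above the highest wild-type library. Slc2a3 rose by 2.03 (SE 0.37 over set means), a fold of 4.08, with limma adjusted p = 3.61e-06 over 12 libraries and 0.0413 over set means. Null libraries 1 to 3 averaged 8.65 and null libraries 4 to 6 averaged 7.89, against 6.53 and 5.94 in the wild-type sets. Without wild-type libraries 1 to 3 the difference was 2.32 with limma adjusted p = 0.0709 over the remaining set means. Without wild-type libraries 4 to 6 it was 1.74 with limma adjusted p = 0.238.

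Slc2a12, which encodes GLUT12, a carrier known from insulin-sensitive tissues and prostate, spanned 10.30, 10.34 and 10.40 (lowest, median, highest) in null libraries and 9.54, 9.78 and 10.04 in wild-type libraries. Its difference was 0.56 (SE 0.20 over set means) with limma adjusted p = 9.56e-05 over 12 libraries and 0.131 over set means. Slc2a4, which encodes the insulin-responsive GLUT4 of fat and muscle, spanned 8.43, 8.74 and 9.09 in null libraries and 7.94, 8.10 and 8.34 in wild-type libraries. Its difference of 0.62 had limma adjusted p = 0.00148 over 12 libraries and 0.175 over set means. Neither gene overlapped between genotypes, and neither passed over set means. Slc2a1, which encodes the ubiquitous GLUT1, spanned 9.67, 10.06 and 10.37 in null libraries and 9.88, 10.01 and 10.09 in wild-type libraries, with a difference of 0.04 (SE 0.26 over set means). The wild-type values of Slc2a1 lay inside the range of the null values, whose sets averaged 10.36 and 9.71. By limma over single libraries the difference was -0.29 without null libraries 1 to 3 (adjusted p = 0.00337) and 0.36 without null libraries 4 to 6 (adjusted p = 0.00031), so its direction depended on the set.

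Markers of other cell types known to use these carriers were read beside them. Of 10 leukocyte markers, 8 were tested and 5 were higher by limma over 12 libraries and 0 over set means (4 at an unadjusted p under 0.05), and their summed level was 11.82 to 12.48 in null libraries and 11.47 to 11.58 in wild-type libraries. The neutrophil genes S100a8 and S100a9 did not pass the filter in either genotype. Of 8 adipocyte markers, 7 were higher and 1 lower over 12 libraries, and Plin1 (2.46), Cidec (2.48) and Cfd (2.16) rose in both comparisons. The summed adipocyte level was 11.09 to 11.56 in null libraries and 10.13 to 10.96 in wild-type libraries. Endothelial markers, which mark vessel lining, were higher in 4 of 5 genes over 12 libraries and lower in 1, and 0 passed over set means (4 higher and 1 lower at an unadjusted p under 0.05). Their summed levels were 10.62 to 11.08 in null libraries and 10.26 to 10.58 in wild-type libraries. Smooth muscle markers were lower in 4 of 6 over 12 libraries and 0 over set means (0 also at an unadjusted p under 0.05). Their sums were 16.13 to 16.71 in null libraries and 16.48 to 16.81 in wild-type libraries. The sets were at 16.68 and 16.19 in null, against 16.51 and 16.77 in wild type. Of all 16197 tested genes, limma over 12 libraries called 34.1% higher and 31.8% lower. At an unadjusted p under 0.05, limma over set means gave 2567 of them higher and 2474 lower. The part of leukocytes in Slc2a3, of adipocytes in Slc2a4 and of vessels and stroma in any of these genes was not tested.

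Hexokinases trap glucose as glucose 6-phosphate, the sugar that both pathways share. Hk2, the inducible isozyme that binds mitochondria and is abundant in muscle and many tumours, spanned 9.99, 10.13 and 10.30 (lowest, median, highest) in null libraries and 8.66, 8.99 and 9.20 in wild-type libraries. No null library overlapped a wild-type library, and the SD within each genotype was small beside the gap (10.13 ± 0.13 in null and 8.97 ± 0.20 in wild type, SD, n = 6 each). Hk2 rose by 1.16 (SE 0.21 over set means), a fold of 2.24, with limma adjusted p = 4.18e-07 over 12 libraries and 0.0387 over set means. With the trend on transcript length removed from every library, the difference was 0.82 with limma adjusted p = 0.0682 over set means, while for Slc2a3 these were 1.61 and 0.0387. Without either wild-type set Hk2 missed the threshold over set means, at 1.31 without libraries 1 to 3 (limma adjusted p = 0.0739) and 1.01 without libraries 4 to 6 (limma adjusted p = 0.244). Over all tested genes these comparisons called 153 higher and 64 lower without libraries 1 to 3 and 4 and 2 without libraries 4 to 6, against 349 and 313 with every set.

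Hk1, the constitutive isozyme of most tissues, spanned 10.41, 10.58 and 10.77 in null libraries and 10.17, 10.19 and 10.32 in wild-type libraries. The genotypes did not overlap, and the difference of 0.37 had limma adjusted p = 0.000873 over 12 libraries and 0.24 over set means. Hk3, an isozyme known from myeloid cells, spanned 4.93, 5.64 and 5.86 in null libraries and 4.15, 4.75 and 5.33 in wild-type libraries. These Hk3 values lie near the filter, overlap between genotypes, and differ by 0.77 with limma adjusted p = 0.00752 over 12 libraries and 0.221 over set means, beside the leukocyte sums given above, whose part was not tested. All 3 hexokinases lay above 0 under each scaling tried, and the 7 transporters and hexokinases together had a median difference of 0.62. Their median longest transcript was 4167 bases, and long transcripts as a group were higher in null libraries. Of 5 equal length classes of tested genes, the fourth, with a median of 4235 bases, had a median difference of 0.18. The longest class (median 6534 bases) was at 0.49 and the shortest (median 964 bases) at -0.37.

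**Figure D2:**
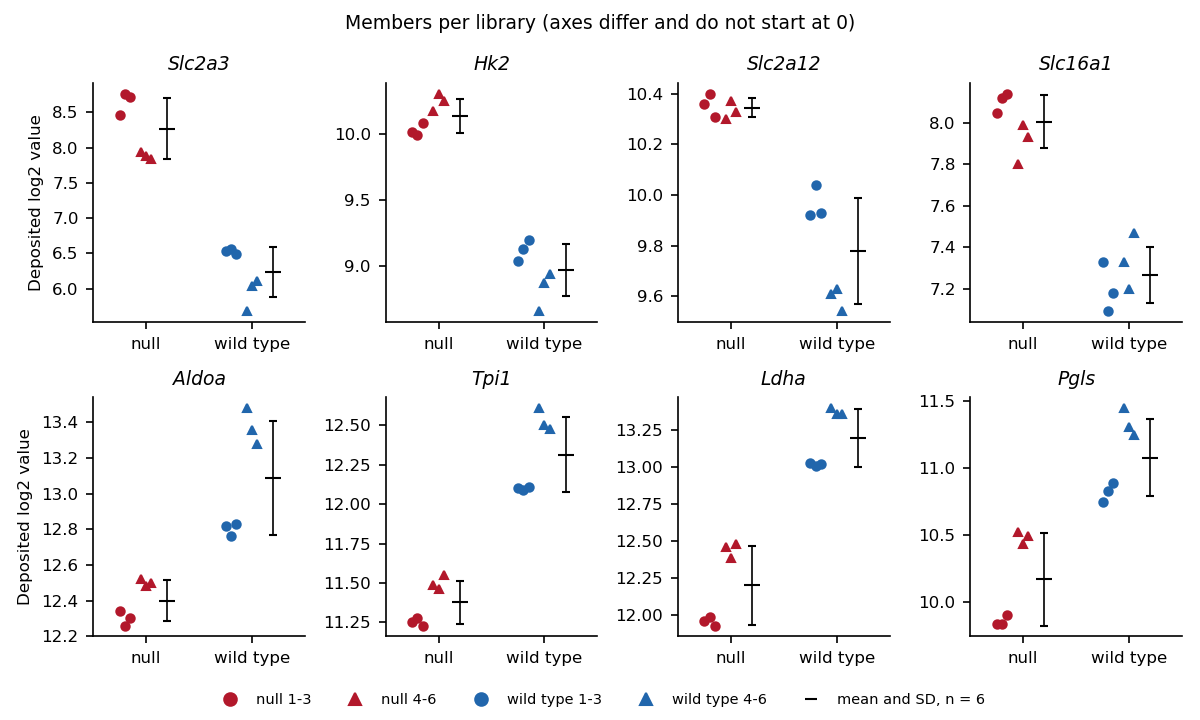
Deposited log2 value (y axis, differing between panels) of 8 genes in each null and wild-type library, with circles for libraries 1 to 3, triangles for libraries 4 to 6, and the mean and SD of 6 libraries beside them. Null libraries lie above all wild-type libraries for Slc2a3, Hk2, Slc2a12 and Slc16a1 and below them for Aldoa, Tpi1, Ldha and Pgls, and the 2 sets of a genotype separate in most panels.

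Gpi1, the isomerase that converts glucose 6-phosphate to fructose 6-phosphate, spanned 11.05, 11.16 and 11.39 in null libraries and 11.38, 11.66 and 11.91 in wild-type libraries. Its difference was -0.46 with limma adjusted p = 0.00116 over 12 libraries and 0.198 over set means. Under scaling by library totals it was -0.14 with limma adjusted p = 0.193 over 12 libraries. Phosphofructokinase, which commits sugar to glycolysis, has 3 subunits. Pfkm, the muscle-type subunit, spanned 9.10, 9.30 and 9.53 in null libraries and 9.80, 9.92 and 10.09 in wild-type libraries. The genotypes did not overlap for Pfkm, and the difference of -0.64 had limma adjusted p = 9.35e-05 over 12 libraries and 0.12 over set means. Pfkl, the liver-type subunit, averaged 10.31 ± 0.22 in null libraries and 10.28 ± 0.20 in wild-type libraries (SD, n = 6 each). Pfkp, the platelet-type subunit, averaged 8.83 ± 0.25 in null libraries and 8.70 ± 0.09 in wild-type libraries (SD, n = 6 each). The differences of Pfkl (0.02) and Pfkp (0.13) were called in neither comparison on the deposited scale, and other scales moved them both ways. Under library totals, limma over 12 libraries called both higher (Pfkl 0.34, adjusted p = 0.00625, and Pfkp 0.44, adjusted p = 0.00104). With the length trend removed Pfkp was called lower (-0.43, limma adjusted p = 0.00222) and Pfkl was at -0.06. Neither passed over set means on any of these scales.

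The 4 Pfkfb enzymes make and break fructose 2,6-bisphosphate, the strongest activator of phosphofructokinase, and they did not move together. Pfkfb3, the isozyme with the highest kinase activity relative to phosphatase, averaged 14.90 in null libraries 1 to 3, with 8.76 in null libraries 4 to 6, against 8.04 and 7.97 in the wild-type sets. Null libraries 1 to 3 thus stood far above all 9 others, while null libraries 4 to 6 lay closer to wild type, though still above its highest library (8.71 or more, against at most 8.23). In null libraries 1 to 3 Pfkfb3 took 0.179% of the library total and ranked 27 to 29 among all genes, and in null libraries 4 to 6 it ranked 6908 to 7121. In wild-type libraries it ranked 8300 to 9035. The gap between the null sets, 6.14, was matched or exceeded by 9 of the 16197 tested genes, Pfkfb3 included. Over all libraries the difference of 3.82 (SE 1.74 over set means) had limma adjusted p = 0.0131 over 12 libraries and 0.188 over set means.

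Seminal vesicle genes also differed between the null sets, though not all in the order of Pfkfb3. Of 8 seminal vesicle markers, 7 were tested, and all 7 were higher over 12 libraries and 5 over set means. Over all tested genes these comparisons called 34.1% and 2.15% higher. The summed level of the markers was 21.41 and 16.84 in the null sets, against 7.66 and 5.95 in the wild-type sets. In null libraries 1 to 3 the sum lay near its most abundant member, Svs2 (21.03 and 11.37 in the null sets). In null libraries 4 to 6 the most abundant member was Svs4 (16.43). Svs5, Svs6 and Pate4 ran in the same order as Svs2, while Svs3a (11.78 and 13.65), Svs3b (11.38 and 11.65) and Svs4 (14.58 and 16.43) ran the other way. The part of these genes in the Pfkfb3 value was not tested. Bpgm and Pygl, outside the 37, were chosen after their values were seen, so their likeness to Pfkfb3 is not a test. Bpgm, which makes 2,3-bisphosphoglycerate, was at 13.04 and 9.78 in the null sets, against 9.52 and 9.77 in the wild-type sets. Pygl, the liver-type glycogen phosphorylase, was at 9.19 and 6.15 in the null sets, against 5.73 and 6.03 in the wild-type sets. Other genes of these lists ran the other way between the null sets, such as Fbp1 (7.06 and 9.07, against 8.97 and 9.24 in the wild-type sets).

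Pfkfb2, the cardiac-type isozyme, spanned 11.11, 11.23 and 11.30 in null libraries and 10.53, 10.78 and 11.06 in wild-type libraries, with a difference of 0.42 and limma adjusted p = 0.00369 over 12 libraries and 0.245 over set means. Pfkfb4, the isozyme first described in testis, spanned 9.69, 10.07 and 10.51 in null libraries and 10.64, 10.78 and 10.86 in wild-type libraries, with a difference of -0.67 and limma adjusted p = 0.00258 over 12 libraries and 0.167 over set means. Neither gene overlapped between genotypes, and they lay on opposite sides. Pfkfb1, the liver and muscle isozyme, averaged 5.09 ± 0.11 in null libraries and 5.04 ± 0.59 in wild-type libraries (SD, n = 6 each) and was called in neither comparison.

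**Figure D3:**
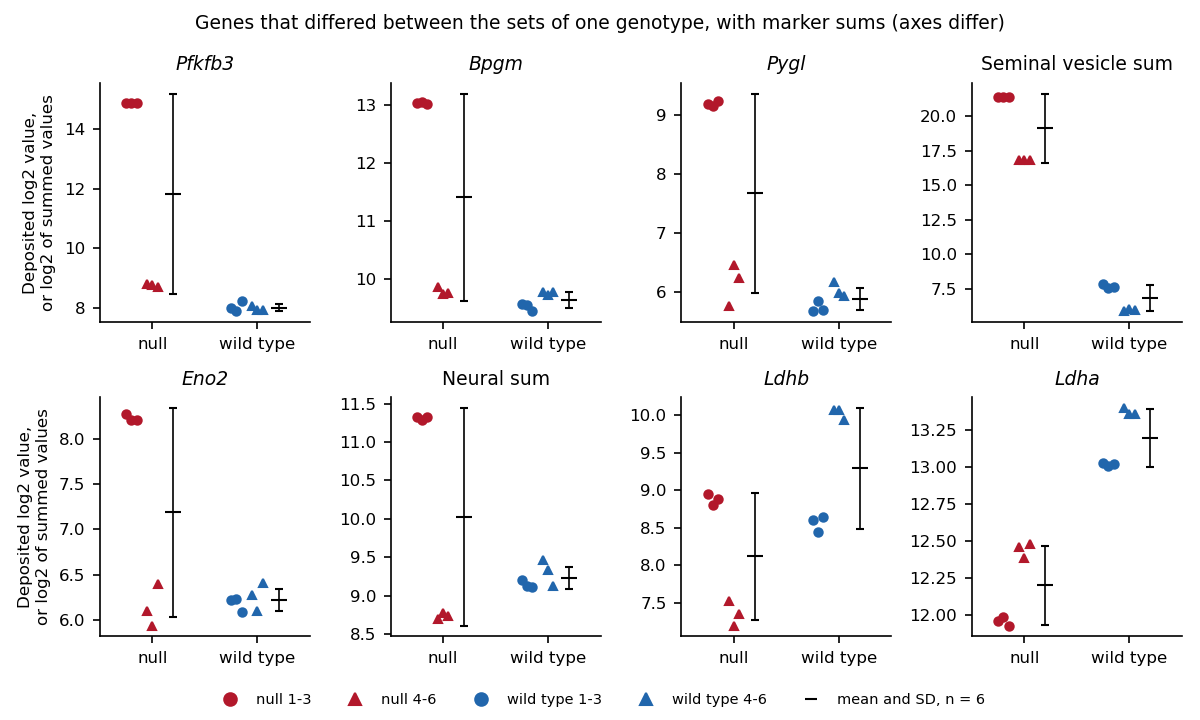
Deposited log2 value of 6 genes, and log2 of the summed linear values of the seminal vesicle and neural marker lists (y axes differ), in each null and wild-type library; circles are libraries 1 to 3, triangles libraries 4 to 6, bars the mean and SD of 6. Null libraries 1 to 3 stand apart for Pfkfb3, Bpgm and Pygl, and again for Eno2 and the neural sum. For the seminal vesicle sum both null sets (21.41 and 16.84) lie far above the wild-type sets (7.66 and 5.95). For Ldhb the sets of each genotype separate and the genotypes overlap. Bpgm and Pygl were chosen after their values were seen.

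Aldolase splits fructose 1,6-bisphosphate into triose phosphates, which triose phosphate isomerase interconverts. Tpi1, the isomerase, spanned 11.23, 11.37 and 11.55 in null libraries and 12.09, 12.29 and 12.61 in wild-type libraries. The difference was -0.94 (SE 0.24 over set means), 1.91-fold lower, with limma adjusted p = 9.09e-06 over 12 libraries and 0.078 over set means. Aldoa, the main aldolase outside liver, spanned 12.26, 12.41 and 12.52 in null libraries and 12.76, 13.05 and 13.48 in wild-type libraries, a difference of -0.69 with limma adjusted p = 0.000505 over 12 libraries and 0.158 over set means. Aldoc, the brain-type aldolase, spanned 7.43, 7.69 and 8.03 in null libraries and 8.06, 8.36 and 8.69 in wild-type libraries, a difference of -0.66 with limma adjusted p = 0.00099 over 12 libraries and 0.172 over set means. All 3 genes separated the genotypes without overlap and stayed below 0 under each scaling tried, and none passed over set means. Their median longest transcript was 1607 bases. With the length trend removed, Tpi1 was at -0.68, Aldoa at -0.42 and Aldoc at -0.60.

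The 8 genes from glyceraldehyde 3-phosphate to pyruvate gave 0 higher and 2 lower by limma over 12 libraries, with 0 called over set means (0 higher and 1 lower at an unadjusted p under 0.05). Among all 16197 tested genes, 34.1% were higher and 31.8% lower over 12 libraries. At the unadjusted threshold over set means, 2567 of them were higher and 2474 lower. Pgk1, which makes the first ATP of the payoff phase, spanned 8.08, 8.43 and 8.76 in null libraries and 8.91, 9.18 and 9.45 in wild-type libraries, a difference of -0.74 with limma adjusted p = 0.000726 over 12 libraries and 0.139 over set means. Pgam1, the mutase of non-muscle tissues, spanned 7.33, 7.54 and 7.88 in null libraries and 7.91, 8.05 and 8.24 in wild-type libraries, a difference of -0.47 with limma adjusted p = 0.00134 over 12 libraries and 0.24 over set means. Both separated the genotypes without overlap, though under library totals Pgam1 was at -0.16 with limma adjusted p = 0.221 over 12 libraries. Pkm, the pyruvate kinase that yields pyruvate and ATP, averaged 12.21 ± 0.19 in null libraries and 12.24 ± 0.06 in wild-type libraries (SD, n = 6 each). Eno1, the ubiquitous enolase, averaged 9.31 ± 0.21 in null libraries and 9.60 ± 0.41 in wild-type libraries (SD, n = 6 each). Neither was called, and the differences of Pkm (-0.03) and Eno1 (-0.29) were above 0 under scaling by library totals.

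Gapdh, often used as a loading standard, averaged only 5.82 ± 0.16 in null libraries and 5.65 ± 0.32 in wild-type libraries (SD, n = 6 each). Of the 100-base windows of its longest coding transcript, 80.2% matched another annotated gene with at most 2 mismatches, and 145 of its 151 partners were pseudogenes. The same share was 84.9% for Eno1, 67.0% for Pgk1, 50.8% for Ldhb, 50.3% for Pkm, 40.6% for Gpi1, 39.7% for Pgam1, 28.6% for Ldha, 15.1% for Tpi1 and 12.4% for Taldo1. G6pdx (4.9%) and Aldoa (4.8%) had a little, and the other 25 genes had none. The sources used here do not say how reads with several places were treated, so the levels of these 12 genes are uncertain. With the values of expressed copies added, Gapdh summed to 7.75 and 7.79 in the null sets, against 7.73 and 7.96 in the wild-type sets, and its difference turned to -0.08. Gpi1 with its copy Gm1840 summed to 12.31 and 12.52 in the null sets, against 12.76 and 12.87 in the wild-type sets, on the same side as Gpi1 alone. The 12 genes with shared windows gave 0 higher and 8 lower by limma over 12 libraries, and the 25 without gave 10 higher and 6 lower. Of all tested genes 34.1% were higher and 31.8% lower. The median longest transcript was 1820 bases for the 12 genes and 3488 for the 25. Over all tested genes the median difference was -0.37 in the shortest of 5 length classes and 0.49 in the longest. The classes between, with median transcripts of 2110, 3092 and 4235 bases, were at -0.16, 0.01 and 0.18. The part of shared sequence or length in this split was not tested.

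Eno2, the neuronal enolase, averaged 8.23 in null libraries 1 to 3 and 6.15 in null libraries 4 to 6, against 6.18 and 6.26 in the wild-type sets. Null libraries 4 to 6 (5.94 to 6.40) lay close to the wild-type libraries (6.09 to 6.41), and the difference of 0.97 was called in neither comparison (limma adjusted p = 0.0568 over 12 libraries and 0.335 over set means). Of 8 neural markers, 7 were tested, and 2 were higher by limma over 12 libraries, beside 34.1% of all tested genes. Over set means 0 of the markers were called (0 also at an unadjusted p under 0.05). The summed level of the neural markers was 11.32 and 8.73 in the null sets, against 9.15 and 9.30 in the wild-type sets. The part of these markers in Eno2 was not tested. Eno3, the muscle enolase, averaged 8.53 ± 0.08 in null libraries and 8.77 ± 0.27 in wild-type libraries (SD, n = 6 each). Pgam2, the muscle mutase, averaged 5.21 ± 0.16 in null libraries and 4.74 ± 0.55 in wild-type libraries (SD, n = 6 each). Eno3 and Pgam2 were called in neither comparison. Summed skeletal muscle markers averaged 11.96 and 11.87 in the null sets, against 11.81 and 12.06 in the wild-type sets, with Myh2, Myh4, Tnnc2, Tnnt3 and Atp2a1 under the filter. The most abundant of them, Acta1, was at 11.66 and 11.72 in the null sets, against 11.66 and 11.91 in the wild-type sets. Mb, the myoglobin gene, was higher by 1.93 without overlap (limma adjusted p = 8.02e-06 over 12 libraries and 0.0508 over set means). Ckm, the muscle creatine kinase, was at 8.67 and 6.80 in the null sets, against 7.13 and 7.12 in the wild-type sets. The part of muscle in Eno3 and Pgam2 was not tested.

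Lactate dehydrogenase links pyruvate and lactate, and Ldha encodes the subunit that favours lactate formation. Ldha spanned 11.93, 12.19 and 12.48 in null libraries and 13.01, 13.19 and 13.40 in wild-type libraries. The highest null library lay below the lowest wild-type library. The difference was -1.0 (SE 0.28 over set means), 1.99-fold lower, with limma adjusted p = 2.27e-05 over 12 libraries and 0.0915 over set means. With its pseudogenes Ldha-ps2 and Gm11814 added, the sets were at 12.06 and 12.53 in null and 13.10 and 13.43 in wild type. Ldhb, the heart-type subunit, was uneven within both genotypes, at 8.88 and 7.36 in the null sets, against 8.56 and 10.02 in the wild-type sets. The genotypes overlapped, and the difference of -1.17 (SE 0.63 over set means) had limma adjusted p = 0.0248 over 12 libraries and 0.243 over set means. Its pseudogene Gm5514 ran alongside at 6.88 and 5.21 in the null sets, against 6.58 and 8.01 in the wild-type sets.

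Lactate and pyruvate cross the plasma membrane through monocarboxylate carriers. Slc16a1, which encodes the widespread carrier MCT1, spanned 7.80, 8.02 and 8.14 in null libraries and 7.09, 7.26 and 7.47 in wild-type libraries. The genotypes did not overlap, and the difference of 0.74 (SE 0.25 over set means) had limma adjusted p = 1.53e-05 over 12 libraries and 0.12 over set means. Slc16a3, which encodes the lactate exporter MCT4, spanned 5.64, 6.52 and 7.09 in null libraries and 5.29, 5.72 and 6.11 in wild-type libraries, a difference of 0.71 with limma adjusted p = 0.0299 over 12 libraries and 0.295 over set means. Slc16a3 overlapped between genotypes, since null libraries 4 to 6 averaged 5.87, near the wild-type sets at 5.65 and 5.79.

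In the oxidative arm of the pentose phosphate pathway, G6pdx makes the first NADPH, Pgls opens the lactone, and Pgd makes the second NADPH. G6pdx averaged 10.34 ± 0.24 in null libraries and 10.49 ± 0.10 in wild-type libraries (SD, n = 6 each). Pgd averaged 11.49 ± 0.20 in null libraries and 11.60 ± 0.11 in wild-type libraries (SD, n = 6 each). Neither NADPH-making enzyme was called, with limma adjusted p = 0.23 for G6pdx and 0.308 for Pgd over 12 libraries. The null sets averaged 10.12 and 10.56 for G6pdx and 11.31 and 11.67 for Pgd, against 10.40 and 10.57, and 11.50 and 11.69, in wild type. By limma over single libraries without null libraries 4 to 6, G6pdx was at -0.36 (adjusted p = 0.000866) and Pgd at -0.29 (adjusted p = 0.00335). Without null libraries 1 to 3 they were at 0.08 and 0.07 (limma adjusted p = 0.374 and 0.378). Pgls spanned 9.83, 10.16 and 10.52 in null libraries and 10.75, 11.07 and 11.45 in wild-type libraries, without overlap. Its difference was -0.91 (SE 0.29 over set means), 1.88-fold lower, with limma adjusted p = 0.000393 over 12 libraries and 0.108 over set means.

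The non-oxidative arm rearranges pentoses into glycolytic sugars. Taldo1, the transaldolase, spanned 11.51, 11.83 and 12.13 in null libraries and 12.18, 12.54 and 13.05 in wild-type libraries, without overlap, a difference of -0.74 with limma adjusted p = 0.00357 over 12 libraries and 0.179 over set means. Tkt, the transketolase, spanned 11.15, 11.28 and 11.45 in null libraries and 11.33, 11.62 and 11.86 in wild-type libraries, a difference of -0.30 with limma adjusted p = 0.0218 over 12 libraries and 0.387 over set means. Rpia, the ribose isomerase, differed by -0.19 with limma adjusted p = 0.029 over 12 libraries and 0.539 over set means, and Rpe, the ribulose epimerase, by -0.19 with 0.0676 and 0.536. On the deposited scale all 7 pentose phosphate genes lay below 0, but under library totals G6pdx, Pgd, Rpia, Rpe and Tkt lay between 0.02 and 0.21, and under quantile normalization Pgd lay at 0.11. Pgls (-0.60) and Taldo1 (-0.42) were below 0 under library totals too. Of the 7, limma called 4 lower over 12 libraries and 0 over set means (1 lower at an unadjusted p under 0.05). Limma over 12 libraries called 31.8% of all tested genes lower. At the unadjusted threshold over set means, 2474 of 16197 were lower.

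The linear values of all 37 genes summed to 0.374 ± 0.0672% of the library total in null libraries and 0.302 ± 0.0277% in wild-type libraries (SD, n = 6 each). The groups overlapped, at 0.306% to 0.438% in null libraries and 0.273% to 0.333% in wild-type libraries. Without Pfkfb3 the sums were 0.283% in null libraries and 0.301% in wild-type libraries. The 50 genes with the highest mean value took 13.9% of the total in null libraries and 30.1% in wild-type libraries, and outside them the 37 genes took 0.432% in both. The hexokinases took 0.0163 ± 0.000363% in null libraries and 0.00832 ± 0.000785% in wild-type libraries (SD, n = 6 each), and the glucose transporters 0.0188 ± 0.00227% and 0.0110 ± 0.000803%, each without overlap. The lactate genes took 0.0328 ± 0.00489% in null libraries and 0.0499 ± 0.00606% in wild-type libraries, and the aldolases with triose isomerase 0.0499 ± 0.00517% and 0.0689 ± 0.0113%, again without overlap. The remaining steps overlapped between genotypes, apart from the Pfkfb group, which carries Pfkfb3.

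**Figure D4:**
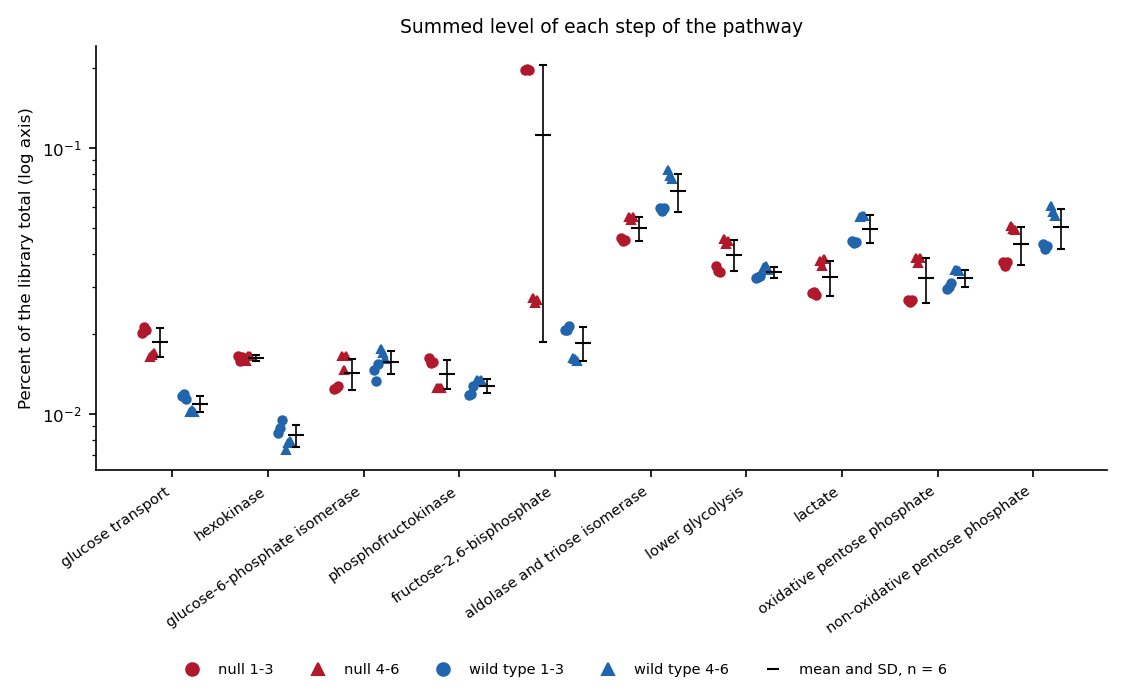
Summed linear value of each step of the pathway as a percentage of the library total (log y axis) in each null and wild-type library; circles are libraries 1 to 3, triangles libraries 4 to 6, bars the mean and SD of 6. Glucose transport and hexokinase lie higher in every null library, aldolase with triose isomerase and lactate lie lower, and the fructose 2,6-bisphosphate step reaches 0.197% in null libraries 1 to 3.

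The order of levels between genes depended on the transcript length used. Per kilobase of the longest transcript, Aldoa had the highest mean linear value of the 37 genes in both genotypes, at 3500 in null libraries and 5740 in wild-type libraries. In wild-type libraries Ldha (5210), Taldo1 (4600), Tpi1 (3210) and Pkm (1990) followed. In null libraries Pfkfb3 came second at 3240, a mean carried by libraries 1 to 3, ahead of Taldo1 (2730), Ldha (2630), Pkm (1970) and Tpi1 (1660). The neighbours Taldo1 and Ldha in null libraries are close in this order, and both have copies elsewhere in the genome. Per kilobase of the median transcript the lead passed to other genes. In null libraries Pfkfb3 (7550), Ldha (6460) and Pkm (6440) then stood above Aldoa (6070), and in wild-type libraries Ldha (12800) stood above Aldoa (9950). Per kilobase of the longest transcript, hexokinases lay lower, with Hk1 at 359 in null libraries and 277 in wild-type libraries and Hk2 at 205 and 91.9.

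Within a library, the log2 difference between isozymes of a step was set out for 8 pairs. For Hk2 minus Hk1 it was -0.44 ± 0.29 in null libraries and -1.24 ± 0.17 in wild-type libraries (SD, n = 6 each). The 6 null values (-0.76 to -0.11) and the 6 wild-type values (-1.53 to -1.07) did not overlap, and the balance differed by 0.80. This was 1 pair of 8 without overlap. Pfkp minus Pfkl was -1.48 ± 0.09 in null libraries and -1.58 ± 0.14 in wild-type libraries, and Aldoc minus Aldoa -4.70 ± 0.34 and -4.73 ± 0.09 (SD, n = 6 each). In 6 of the 8 pairs, all but Hk2 minus Hk1 and Pfkp minus Pfkl, the null sets differed more from each other than the genotypes did. For Ldhb minus Ldha the null sets were at -3.08 and -5.08 and the wild-type sets at -4.46 and -3.36.

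**Figure D5:**
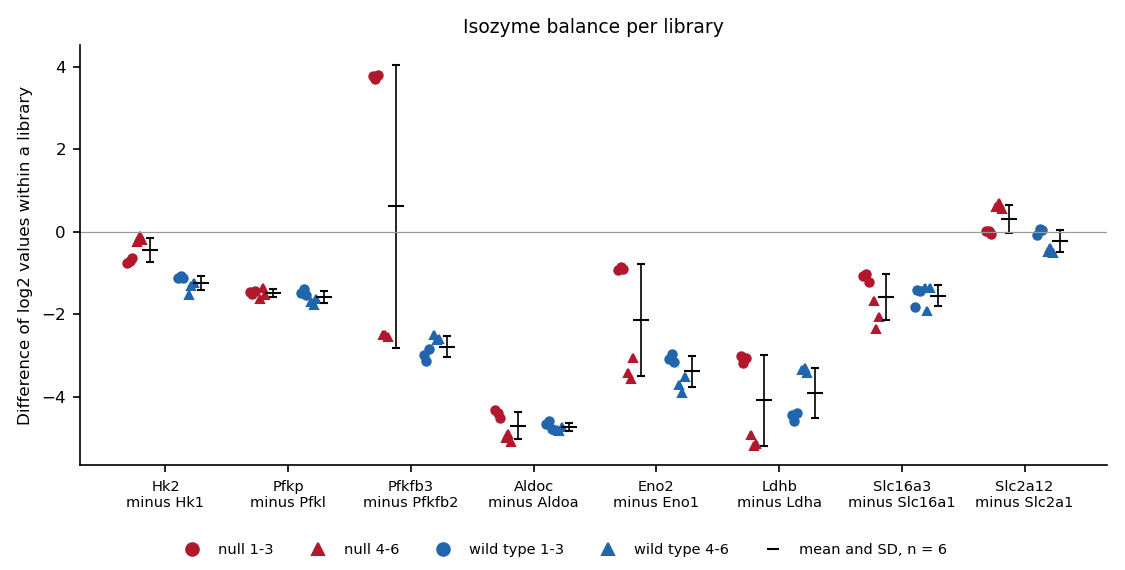
Difference of the log2 values of 2 isozymes within each library (y axis) for 8 pairs (x axis), null left of wild type in each pair; circles are libraries 1 to 3, triangles libraries 4 to 6, bars the mean and SD of 6. Hk2 minus Hk1 separates the genotypes, and in 6 of the 8 pairs the null sets lie farther apart than the genotype means, most widely for Pfkfb3 minus Pfkfb2.

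Differences between the sets of a genotype were somewhat larger for these genes than for all tested genes, a contrast that was not tested. The median absolute difference between the 2 null sets was 0.38 over the 37 genes and 0.28 over all tested genes, and between the 2 wild-type sets 0.33 and 0.29.

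Other genes around the pathway were taken from 5 lists with 90 genes, of which 78 were tested. By limma over 12 libraries 22 were higher and 33 lower, and over set means 1 rose and 4 fell. As shares of the 78, 28.2% were higher and 42.3% lower over 12 libraries, against 34.1% and 31.8% of all tested genes, and nothing particular to these lists is read from them. Among 25 tested genes of neighbouring reactions, 8 were higher and 10 lower over 12 libraries. Pck1, the gluconeogenic phosphoenolpyruvate carboxykinase of the cytosol, rose by 2.31 with limma adjusted p = 1.08e-07 over 12 libraries and 0.0258 over set means. Pck2, its mitochondrial counterpart, fell by 1.06 with limma adjusted p = 0.05 over set means, just under the threshold before rounding. This call was lost under library totals (-0.75, limma adjusted p = 0.0698), the upper quartile (0.0559), quantile normalization (0.0573) and no filter (0.0577). Among 23 tested genes of branches, 2 were higher and 12 lower over 12 libraries, and 3 fell in both comparisons. Akr1b3, the aldose reductase that turns glucose into sorbitol with NADPH, fell by 1.94 with limma adjusted p = 0.0278 over set means. Sord, which oxidises sorbitol to fructose, fell by 1.67 with limma adjusted p = 0.0147 over set means. Phgdh, which draws 3-phosphoglycerate into serine synthesis, fell by 1.45 with limma adjusted p = 0.03 over set means.

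Of 9 other NADPH producers, 1 was higher and 6 lower by limma over 12 libraries and 0 over set means (3 lower at an unadjusted p under 0.05), with Aldh1l2, a mitochondrial folate enzyme, at -2.26 (limma adjusted p = 0.0711 over set means). Of 16 hypoxia-inducible factors and textbook targets outside the 37 genes, 7 were higher and 5 lower by limma over 12 libraries and 0 over set means (4 higher and 2 lower at an unadjusted p under 0.05). Hif1a differed by 0.82 and the target Adm by 0.85, while the targets P4ha1 and Bnip3 differed by -0.88 and -0.80. Of 5 glucose-sensing regulators, 4 were higher by limma over 12 libraries and 0 over set means (3 at an unadjusted p under 0.05), with Mlxipl, which encodes the carbohydrate-responsive factor ChREBP, at 1.19 and its paralog Mlxip at 0.80. Of all 16197 tested genes, 34.1% were called higher and 31.8% lower over 12 libraries. At an unadjusted p under 0.05, limma over set means gave 2567 of them higher and 2474 lower. Nothing particular to these short lists is read from their counts.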

How the data were processed

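Prostate RNA was selected for poly-A, prepared with a TruSeq kit and sequenced on a HiSeq2000 with 100-base reads, per the labels' protocols. Tools in the submitters' processing notes are TopHat, Cufflinks, DESeq and CASAVA 1.8.2, beside the builds mm9 and GRCm38.p2, with no role or order for any. The sources used here state neither a strand setting nor how reads with several places were treated. The values the authors deposited are on a log2 scale per gene, normalized between libraries by the authors in a way that is not stated.

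A count model had been planned in case the table held counts. Linear values fell within 0.1 of whole reads in the upper range alone, and below it in about the 20% that chance gives, so limma 3.58.1 (R 4.3.3, trend, two-sided) was run on the log2 values as deposited. No pseudocount was added in the main comparison. Low genes were removed with a filter of 4 in at least 6 libraries. Depth was estimated from the upper range. Because counts were not recovered, no counting intervals are given, and low genes such as Hk3, Pgam2 and Pfkfb1 are the least precise. Libraries were numbered in accession order. The sets of 3 were taken from the closeness of library values in earlier results of these data, and the closeness was measured again here. The code was tested on simulated data. Positions and transcript lengths came from GENCODE vM21 (GRCm38), in which 37607 of the 39179 gene IDs (96.0%) were found. Shared sequence was sought by matching 100-base windows with at most 2 mismatches, and the values of copies were added as an alternative. Other alternatives were scalings, filters, a pseudocount of 16, a length correction, a random block for sets, library weights (whose estimation stopped before convergence), a threshold of 0.01, and leaving out libraries or sets. All 37 genes could be named. From every other list the genes passing both comparisons were named, at most 6, with up to 4 more of the lowest p over 12 libraries. Bpgm, Pygl and Fbp1 fall outside this rule and were named after their values were seen. Filtered-out or defining markers are named where a list is described. The members and lists were chosen with earlier results of these data known. A marker that was examined is not reported here.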

Additional observations from a re-analysis of the deposited data

Results flagged for a closer look

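Of 90 groups of 6 values examined (the 37 genes, the 8 isozyme differences), 1 was flagged because a library stood apart from the other 5. Hk1, the constitutive hexokinase, was at 10.32 in wild-type library 3, against a group median of 10.19, and the gap to the nearest library was 0.724 of the whole range of the group, above Dixon's 95% critical value for 6 values. Chance flags about 1 in 20 such groups. The lowest null library, at 10.41, still lay above this wild-type library.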

How the results depend on the processing

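With 1 library left out at a time, limma over 12 libraries called 9 to 11 of the 37 genes higher and 11 to 15 lower, the other pathway genes 20 to 22 higher and 28 to 33 lower, and the median difference was -0.15 to -0.07. Library totals gave 17 higher and 7 lower of the 37, 36 higher and 17 lower of the other genes, a median of 0.21, and 9 other genes higher over set means. A random block for sets gave 11 other genes higher. Over set means, the length correction left 1 of the 37 higher and gave 7 other genes lower, and a threshold of 0.01 left 0 of the 37 higher and 0 other genes higher or lower. With a set left out, 2 set means face 1, which is assumed to vary like the others. Without null libraries 4 to 6 this gave 5 higher and 6 lower of the 37 and 8 and 8 of the other genes, beside 1783 higher and 1416 lower of all tested genes. Without null libraries 1 to 3 the differences were 1.65 for Slc2a3, 1.27 for Hk2 and -1.92 for Ldhb, against 2.03, 1.16 and -1.17 with every set. Without either wild-type set 0 of the 37 were higher and 0 other genes were called, beside 153 higher and 64 lower of all tested genes without wild-type libraries 1 to 3 and 4 and 2 without libraries 4 to 6. The cause of these shifts was not tested. The summed share in null libraries was 0.361% to 0.388% with 1 library left out and 0.283% without Pfkfb3, and the wild-type share was 0.296% to 0.308%, and 0.432% outside the 50 most abundant genes.

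Isozyme differences, null minus wild type, were without null libraries 1 to 3 and without null libraries 4 to 6: 1.05 and 0.54 for Hk2 minus Hk1, 0.27 and 6.54 for Pfkfb3 minus Pfkfb2, -0.27 and 0.33 for Aldoc minus Aldoa, 0.03 and 2.49 for Eno2 minus Eno1, -1.17 and 0.83 for Ldhb minus Ldha, -0.49 and 0.44 for Slc16a3 minus Slc16a1, and 0.84 and 0.22 for Slc2a12 minus Slc2a1.

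Some genes changed sign. Under library totals Eno1 was at 0.02, Eno3 0.08, Pkm 0.29, G6pdx 0.17, Pgd 0.21, Rpia 0.12, Rpe 0.13 and Tkt 0.02. Under the upper quartile Pkm was at 0.05, and under quantile normalization Pfkfb1 at -0.33, Gapdh -0.23, Pkm 0.25 and Pgd 0.11. With the length correction Pfkl was at -0.06, Pfkp -0.43, Eno3 0.03 and Pkm 0.09, and with copies added Gapdh at -0.08. Without null libraries 1 to 3 Slc2a1 was at -0.29, Pfkl -0.18, Pfkp -0.09, Eno2 -0.08, Pkm 0.15, G6pdx 0.08 and Pgd 0.07. Without wild-type libraries 1 to 3 Slc2a1 was at -0.02, Pfkl -0.14, Pfkfb1 -0.43 and Gapdh -0.05, and without wild-type libraries 4 to 6 Pgam2 at -0.02, Eno1 0.08, Eno3 0.0 and Pkm 0.01. With 1 library left out, Slc2a1 ranged over -0.03 to 0.11, Pfkl over -0.02 to 0.08, Pfkfb1 over -0.09 to 0.22 and Pkm over -0.07 to 0.02. No paired analysis was possible because the labels' library codes are not shared between genotypes.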
